A study of Rattus norvegicus with 48 samples.

Results

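The sperm methylation loci described here were listed as different between exposed and control rat lineages in the F1 generation and again in the F3 generation, with no listed cytosine in the F2 generation between them. Listed cytosines lying at most 1000 bp from the next were joined into loci, and the loci with fewer than 5 distinct cytosines, at least 1 from F1, at least 1 from F3 and none from F2 were taken, whatever the direction of their differences. Of the 2716 loci formed from all 3 generations, 2647 held fewer than 5 cytosines, and 197 of these (7.44%) met the rule. They held 324 of the 3998 distinct listed cytosines. The members were therefore chosen by the same F1 and F3 contrasts whose values are given, so every count and size that follows is a description, and no test was made on them.

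The study followed sperm from Sprague-Dawley rats over several generations after founder females (F0) had been given the POPs Arctic mixture (persistent organic pollutants, labelled organochlorines) or corn oil alone. Dosing began at 5 weeks of age, by gavage at 500 µg/kg body weight, 3 times a week for 5 weeks, and went on through mating until the litters were born. Sperm was collected from the caudal epididymis of males killed at 90 days, and its DNA was assayed by reduced representation bisulfite sequencing (RRBS), in which DNA cut at CG-rich sites is treated so that unmethylated cytosines read as thymines. The labels give 48 sperm samples in 8 groups of 6, an organochlorine and a control group for each of 4 numbered generations, and the deposited lists are numbered 1 to 3. The series' design speaks of 6 exposed and 6 control males in each of F1, F2 and F3. The labels do not say how samples of generations 1 to 4 pair with the lists or how the generations were bred, and the lists' own numbering (F1, F2 and F3) is used throughout.

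In mammals DNA methylation sits mostly on cytosines followed by guanine (CpG), and because the opposite strand carries the same pair, both strands of a CpG are usually methylated together. Most of these marks are erased and laid down again in the germ cells that form sperm and, a second time, after fertilisation. A difference that appears in the sperm of 1 generation and again in later descendants is therefore the kind of site that studies of inherited exposure look for.

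The values analysed are the signed methylation differences, in percentage points, that the authors listed per cytosine at a false discovery rate under 1% and a difference of at least 20 points. Hyper and hypo are used as the lists use them, since the sources used here do not state which group was subtracted from which. No sample's methylation level, read depth or replicate spread accompanies the lists, so no difference below carries an error of its own. A cytosine that is not in the F2 list was either not different by the authors' criteria or not tested there, and these cannot be told apart. The samples labelled generation 1 and 2 shared 2 sequencing lanes and those labelled generation 3 and 4 shared 2 others, with 3 samples of each group in each lane. Exposure was thus balanced over lanes within a generation, while lane and generation cannot be told apart between F1 and F3. F2 shared lanes with F1 or with F3 according to how the lists pair with the labels, which the labels do not say.

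Of the 197 loci, 60 were hyper in F1 and hyper in F3 (30.5%, exact Clopper-Pearson 95% interval 24.1 to 37.4%), and 49 were hypo in both (24.9%, 19.0 to 31.5%). A further 42 went from hyper in F1 to hypo in F3 (21.3%, 15.8 to 27.7%), and 31 went from hypo to hyper (15.7%, 10.9 to 21.6%). The remaining 15 loci held hyper and hypo cytosines within 1 generation (7.61%, 4.32 to 12.2%). Leaving those 15 aside, 109 of 182 loci had the same direction in both generations (59.9%, 52.4 to 67.1%) and 73 had opposite directions. The share was alike for both starting directions: 60 of 102 loci that were hyper in F1 were hyper in F3 (58.8%, 48.6 to 68.5%), and 49 of 80 that were hypo in F1 were hypo in F3 (61.3%, 49.7 to 71.9%). All such intervals here cover counting error over loci only, and neighbouring loci are not independent.

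The other kinds of recurrent locus, formed from the same lists with the same limit on cytosines, were set beside these. Loci listed in F1 and F2 but not F3 had the same direction in 118 of 134 cases (88.1%, 81.3 to 93.0%). Loci listed in F2 and F3 but not F1 did so in 136 of 162 (84.0%, 77.4 to 89.2%). Among loci listed in all 3 generations, F1 and F3 had the same direction in 101 of 120 (84.2%, 76.4 to 90.2%), F1 and F2 in 108 of 119 (90.8%, 84.1 to 95.3%), and F2 and F3 in 102 of 117 (87.2%, 79.7 to 92.6%). The interval of the F1 and F3 loci that skipped F2 lay wholly below each of these, but the lists themselves sorted the loci into these kinds, and the difference was not tested. The sizes were close or somewhat smaller: the median of the smaller of a locus' largest differences in its 2 generations was 24.5 points in the F1 and F3 loci, 24.8 in the F1 and F2 loci and 25.3 in the F2 and F3 loci. In loci listed in all 3 it was 24.4 points for F1 against F3, 26.6 for F1 against F2 and 26.6 for F2 against F3. Loci with both directions within a generation numbered 15 of 197 here (7.61%), against 2 of 136 for F1 and F2 loci and 2 of 164 for F2 and F3 loci. In loci listed in all 3 they numbered 8 of 128 for F1 against F3 (6.25%), 9 for F1 against F2 (7.03%) and 11 for F2 against F3 (8.59%).

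**Figure D1:**
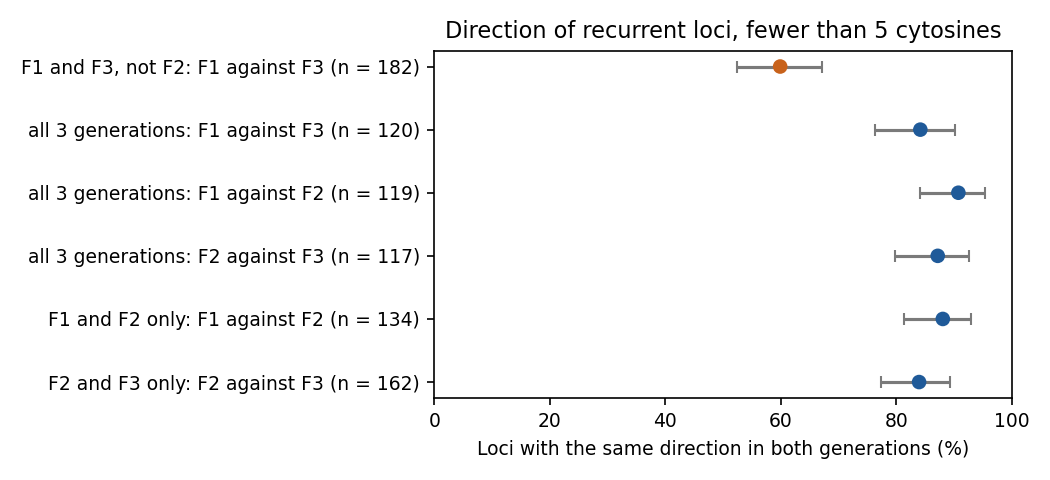
Percentage of loci whose listed cytosines have the same direction in the 2 generations named, for each kind of recurrent locus with fewer than 5 cytosines; bars are exact 95% Clopper-Pearson intervals over n loci. The loci listed in F1 and F3 but not F2 stand at 59.9%, and the other kinds between 84.0% and 90.8%.

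Most of these loci were short. A single cytosine made up 98 of the 197 (49.7%, against 77.6% of all loci with fewer than 5 cytosines), while 77 held 2, 16 held 3 and 6 held 4. The other recurrent loci lay nearer in this respect. Their share of 1-cytosine loci was 61.0% for F1 and F2, 58.5% for F2 and F3, and 55.5% for all 3 generations. A locus of 1 cytosine enters only if that very base is in both lists, whereas a larger one may enter through different bases, so the rule itself bears on this share. In 45 of the 2-cytosine loci the cytosines lay on opposite strands of adjacent bases and are taken as 1 CpG, since the lists do not give the sequence context. The 99 loci with more than 1 cytosine spanned a median of 14 bp, with 78 of them within 100 bp and the longest 958 bp.

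Taking for each locus the smaller of its largest absolute differences in F1 and F3, the medians were 23.5 points for loci hyper in both, 25.2 for loci hypo in both, 22.1 for hyper to hypo and 23.8 for hypo to hyper. Loci of the same direction ranged from 20.2 to 54.7 points on this measure, loci of opposite direction from 20.01 to 43.0 and mixed loci from 21.7 to 47.3. The classes overlapped over most of their ranges, and the loci above 43.0 points were of the same direction or mixed. The largest difference was the greater in F3 in 108 of the 197 loci.

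Over all their cytosines, the 249 listings of these loci in F1 had a median absolute difference of 28.2 points (95% interval of the median 27.2 to 29.95), against 26.05 over all 1721 cytosines listed in F1. The 271 listings in F3 had a median of 28.9 points (27.5 to 30.2), against 27.2 over all 1997. Of the F1 listings 139 were hyper, from 20.2 to 63.3 points, and 110 hypo, from −58.6 to −20.01 points. In F3 136 were hyper, from 20.1 to 76.7 points, and 135 hypo, from −71.7 to −20.01 points. The share of hyper listings was 55.8% in F1, beside a background of 58.8% over the whole F1 list, and 50.2% in F3, beside 46.9% over the whole F3 list. Both shares were near their backgrounds. Differences of 50 points or more made up 5.62% of the F1 listings (14 cytosines) and 2.79% of the whole F1 list, and 7.01% of the F3 listings (19 cytosines) and 3.96% of the whole F3 list.

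The same base was listed in F1 and in F3 at 196 cytosines, in 169 of the 197 loci. Of these, 127 had the same sign in both generations (64.8%, 57.7 to 71.5%), 69 of them hyper and 58 hypo. The other 69 changed sign, 40 from hyper to hypo and 29 from hypo to hyper. Across these 196 cytosines Pearson's r of the signed differences was 0.32 and Spearman's rho 0.25, and for the absolute differences r was 0.05 and rho −0.01. These correlations describe sites that share the same animals and libraries within a generation and that all exceed 20 points, so they carry no p-value. Among cytosines past 20 points in both lists, the sizes in F1 and F3 were thus nearly uncorrelated. How sizes relate over the full range cannot be seen, since smaller differences were not listed. The absolute values lay within 5 points of each other at 64 cytosines and within 10 points at 125, and the F3 value was the larger at 106. At 48 cytosines both differences reached 30 points, 31 with the same sign and 17 with opposite signs. At 5 cytosines both reached 40 points, and those 5 had the same sign.

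**Figure D2:**
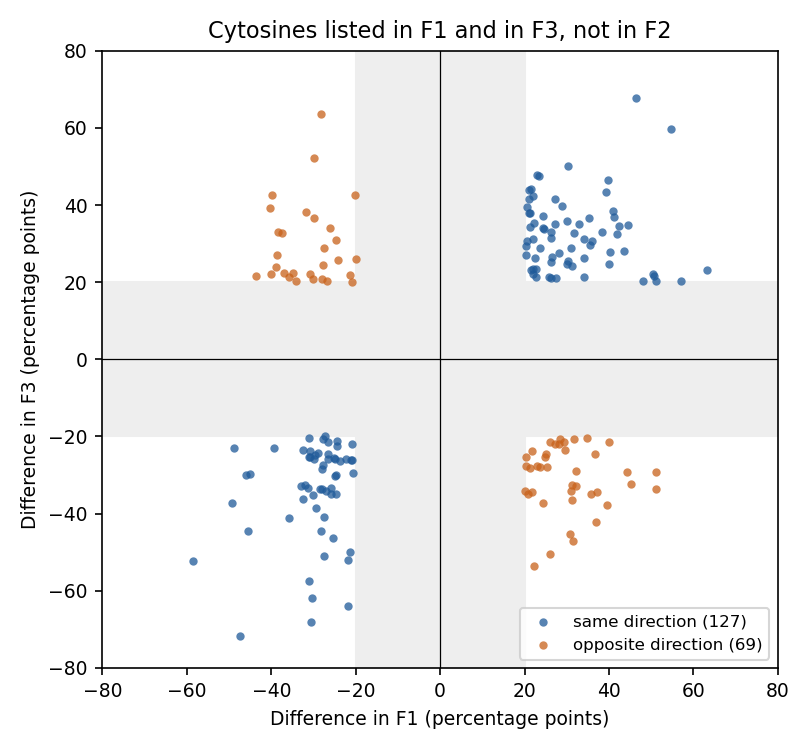
Difference in F1 (horizontal) against difference in F3 (vertical), in percentage points, for the 196 cytosines listed in both generations; each point is 1 cytosine and the grey bands are the 20 points below which nothing was listed. The 127 cytosines of the same sign fill the upper right and lower left, the 69 of opposite sign the other 2 corners, and the 5 points that reach 40 on both axes are of the same sign. A reversing point at −39.9 in F1 and 42.5 in F3 lies just short of that.

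The 6 strongest loci of each direction were taken by the smaller of their largest absolute differences in F1 and F3. Among loci hyper in both generations, the leading one was a single cytosine on chromosome 17 at position 29385508 (rat build Rnor_5.0, as for all positions), with differences in the authors' deposited table of 54.7 points in F1 and 59.7 points in F3. The cytosine at chromosome 1, position 143490799, had 46.5 points in F1 and 67.9 for F3 by the authors' deposited table, and its opposite-strand partner at 143490800 was listed in F3 alone with 42.8. Chromosome 14, position 93997982, is another single cytosine, which the authors' deposited table lists at 39.8 points in F1 and 46.5 in F3. Both strands of 1 CpG were listed in both generations at chr7:120189000-120189001, where the authors' deposited table gives 43.6 and 41.0 points in F1 and 28.2 and 38.5 in F3. The locus chr14:57118704-57118748 held 4 listings in the authors' deposited table, 23.1 and 41.2 points in F1 and 20.1 and 37.0 in F3, of which the base at 57118748 carried the larger value each time. At chromosome 6, position 144398727, values in the authors' deposited table were 35.4 points in F1 and 36.5 in F3. Apart from the locus on chromosome 1, whose F3 value was the larger by far, the largest values of F1 and F3 lay close to each other in these loci.

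Among loci hypo in both generations, the strongest was chromosome 7, position 115812970, with −58.6 points in F1 and −52.4 in F3, as given in the authors' deposited table. On chromosome 1 the authors' deposited table gives −45.4 points in F1 and −44.6 in F3 at position 196906021. Farther along that chromosome, position 197173931 had −35.8 points in F1 and −41.2 in F3, as given in the authors' deposited table. Chromosome 18, position 460570, had −49.2 points in F1 and −37.2 in F3, as given in the authors' deposited table, the widest gap of these 6. The pair chr11:28812200-28812213 was listed at both bases in both generations, with −21.2 and −33.0 points in F1 and −26.1 and −33.0 in F3, as given in the authors' deposited table. At chromosome 13, position 59360234, the authors' deposited table gives −32.0 points in F1 and −32.5 in F3. The last 2 loci had nearly the same largest value in both generations.

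Loci that went from hyper to hypo reached less far, none exceeding 36.9 points on its weaker side. The strongest, chromosome 1, position 266628329, had 36.9 points in F1 and −42.2 in F3, as given in the authors' deposited table. The authors' deposited table holds nearly mirrored values for chromosome 10, position 19152984, 35.7 points in F1 and −35.0 in F3. The authors' deposited table has 37.1 points in F1 and −34.5 in F3 at chromosome 12, position 42903190. A larger start preceded the reversal at chromosome 11, position 67494309, with 45.2 points in F1 and −32.3 in F3, as given in the authors' deposited table. Within chr20:51719411-51719458 both cytosines reversed, from 30.9 and 32.2 points in F1 to −34.1 and −32.9 in F3, as given in the authors' deposited table. At chr8:128212649-128212805 both strands of the first CpG reversed, from 24.4 and 31.2 points in F1 to −37.3 and −32.7 in F3, as given in the authors' deposited table, while the last base was listed in F1 alone at 31.9 points. In these last 2 loci the reversal was thus seen at 2 bases each, not at 1.

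Among loci that went from hypo to hyper, chr8:19727519-19727640 had the largest F3 difference of all 197 loci. Its values in the authors' deposited table were −43.0 points in F1 at the last base, and 76.7 and 54.8 points in F3 at 2 bases before it, so no base of this locus was in both lists. The following locus by strength had the same base in both lists, chromosome 4, position 17420801, at −39.9 points in F1 and 42.5 in F3, as given in the authors' deposited table. Also on chromosome 4, position 17906663 had −40.3 points in F1 and 39.3 in F3, and position 17528366 had −37.5 and 32.8, in the authors' deposited table. Both strands reversed at chr19:42958593-42958594, from −38.5 and −38.5 points in F1 to 27.0 and 33.0 in F3, as given in the authors' deposited table. At chromosome 2, position 261826865, the authors' deposited table gives −31.8 points in F1 and 38.3 in F3, and the other strand was listed in F1 alone at −28.6. The 3 loci on chromosome 4 thus had differences of nearly equal size and opposite sign in F1 and F3.

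**Figure D3:**
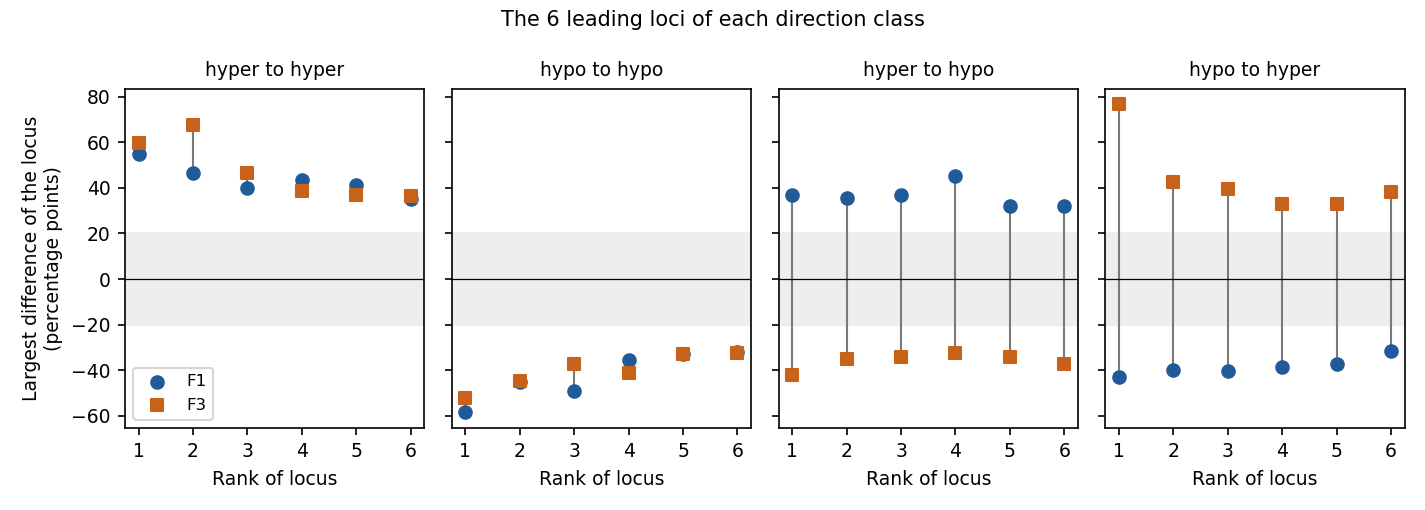
Largest difference per locus in F1 (circles) and F3 (squares), in percentage points, for the 6 strongest loci of each direction class, ranked from left to right; grey bands mark the 20 points below which nothing was listed. Loci with the same direction lie up to 67.9 points in F3, and loci that reversed lie on both sides of 0 with an outlying 76.7 points at the first locus of the last panel.

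The locus with the most cytosines of the same direction in both lists was chr14:113948392-113948470. The authors' deposited table has 3 of its cytosines hyper in F1, at 26.2, 26.3 and 24.5 points, and 4 in F3, at 31.3, 32.9, 34.0 and 37.3. Its counterpart among reversing loci was chr1:95850595-95850637, where the authors' deposited table lists 4 cytosines in F1 at −35.7, −35.9, −34.2 and −34.9 points and 3 of them in F3 at 21.2, 20.3 and 22.2. In each generation the cytosines of these 2 loci lay close to each other, and the reversal on chromosome 1 involved every base in both lists.

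Strand partners gave a second view of the same CpG. The 324 cytosines fell on 265 CpG positions. Both strands were listed at 25 CpGs in F1, with the same direction at 24, where the median gap between strands was 4.02 points, and at 44 CpGs in F3, with the same direction at 42, where it was 5.00 points. Within a generation, the 2 strands of a CpG thus nearly always had the same direction, in F3 as in F1. Of the loci with more than 1 cytosine listed in a generation, 34 of 45 had 1 direction in F1 and 54 of 63 in F3. These loci include the strand pairs, so neighbouring bases other than strand partners were not counted on their own. Between generations the direction was kept less often than between strands. Loci of 1 cytosine kept it in 58 of 98 cases (59.2%, 48.8 to 69.0%) and larger loci in 51 of 84 (60.7%, 49.5 to 71.2%), which are close.

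In 28 loci no base was in both lists, and F1 and F3 were joined only by distance, from 1 to 477 bp with a median of 68 bp. Leaving out 1 locus with both directions, 12 of 27 had the same direction (44.4%, 25.5 to 64.7%), against 97 of 155 loci with a shared base (62.6%, 54.5 to 70.2%). The intervals overlap. Among the 5 of these loci in which F1 listed 1 strand of a CpG and F3 the other, 3 had opposite directions. Direction was kept in 57 of 103 loci under 25 points on their weaker side (55.3%, 45.2 to 65.1%). It was kept in 52 of 79 at 25 points or more (65.8%, 54.3 to 76.1%). Among those 79, the loci at 30 points or more kept it in 25 of 40 (62.5%, 45.8 to 77.3%). At 35 points or more it was kept in 10 of 14 (71.4%, 41.9 to 91.6%). At 40 points or more it was kept in 4 of 5 (80%, 28.4 to 99.5%). These intervals overlap as well.

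The 15 loci with hyper and hypo cytosines in 1 generation were not all alike. In 5 of them both directions were present in F1 and in F3, each within 100 bp, and all 10 of their bases in both lists kept their sign. The clearest lay on the minus strand at chr3:171201839-171201871, where the authors' deposited table gives 39.4 and −31.3 points in F1 and 43.5 and −33.4 in F3. At chr8:110956631-110956654 the pattern ran the other way round, with −46.0 and 40.2 points in F1 and −30.0 and 27.8 in F3, as given in the authors' deposited table. The minus-strand pair at chr9:114961110-114961208 had −28.0 and 36.0 points in F1 and −33.6 and 30.7 in F3, as given in the authors' deposited table. At chr20:15357093-15357161 the authors' deposited table gives 28.8 and −20.7 points in F1 and 39.7 and −29.6 in F3 for the 2 bases in both lists. The fifth, chr8:21246487-21246488, was a single CpG whose strands had opposite signs, 20.7 and −25.9 points in F1 and 30.6 and −34.8 in F3, as given in the authors' deposited table. A base and its neighbour could thus differ in direction and both be listed with the same signs in F1 and F3.

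In the other 10 mixed loci only 1 generation held both directions, F1 in 6 and F3 in 4. The largest values were at chr12:30057378-30057470, where the authors' deposited table gives −47.3 and −30.6 points in F1 and −71.7 and −68.2 in F3 for the strands of its last CpG, and 20.5 in F1 at its first base. At chr7:26776946-26777270 the authors' deposited table lists −58.3, −57.2, −45.0 and 26.3 points in F1, and −29.9 in F3 at the third of these bases. Sign changes at the same base occurred at chromosome 8, position 121126324, with 51.2 points in F1 and −33.8 in F3, as given in the authors' deposited table. Another base reversed at chromosome 5, position 126796426, from 31.6 points to −47.1 in the authors' deposited table, with 2 hyper bases in F3 close by. The longest locus, chr8:127377936-127378893, had −34.9 and 39.5 points in F1 and −37.7, −40.0 and −28.9 in F3, as given in the authors' deposited table, and its only shared base was the one that reversed. The fourth base that reversed was chromosome 1, position 146617205, with 21.7 points in F1 and −34.3 for F3 by the authors' deposited table. At chr2:223690422-223690432 the only shared base kept its sign, at 42.0 points in F1 and 32.6 for F3 by the authors' deposited table, and the last base was listed in F1 alone at −41.2. Over all 15 loci, 16 of 20 shared bases kept their sign.

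On the chromosomes, the loci lay on each of the 20 numbered chromosomes, from 1 on chromosome 15 to 22 on chromosome 1. As a share of the loci with fewer than 5 cytosines on the same chromosome, they made up 11.9% on chromosome 8 (15 of 126, 6.82 to 18.9%). The share was 10.8% on chromosome 18 (7 of 65), 10.6% on chromosome 14 (11 of 104) and 10.1% on chromosome 10 (16 of 159). It was 1.25% on chromosome 15 (1 of 80, 0.0316 to 6.77%). The interval on chromosome 8 includes the genome-wide 7.44% and that on chromosome 15 lies below it, 2 of 20 chromosomes chosen as the extremes. Counts of direction are given for chromosomes picked by those counts, and differences between chromosomes were not tested. Chromosome 1 had 15 loci of the same and 5 of opposite direction, chromosome 6 had 8 and 3, and chromosome 16 had 4 and 0. Chromosome 5 had 3 and 9, chromosome 2 had 6 and 9, and chromosome 8 had 4 and 7, with 4 mixed loci besides. Close neighbours, described below, weigh on these counts. A block of neighbouring loci held 4 of the 8 on chromosome 6. Other blocks held 4 of the 9 on chromosome 5 and 4 of the 7 on chromosome 8.

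**Figure D4:**
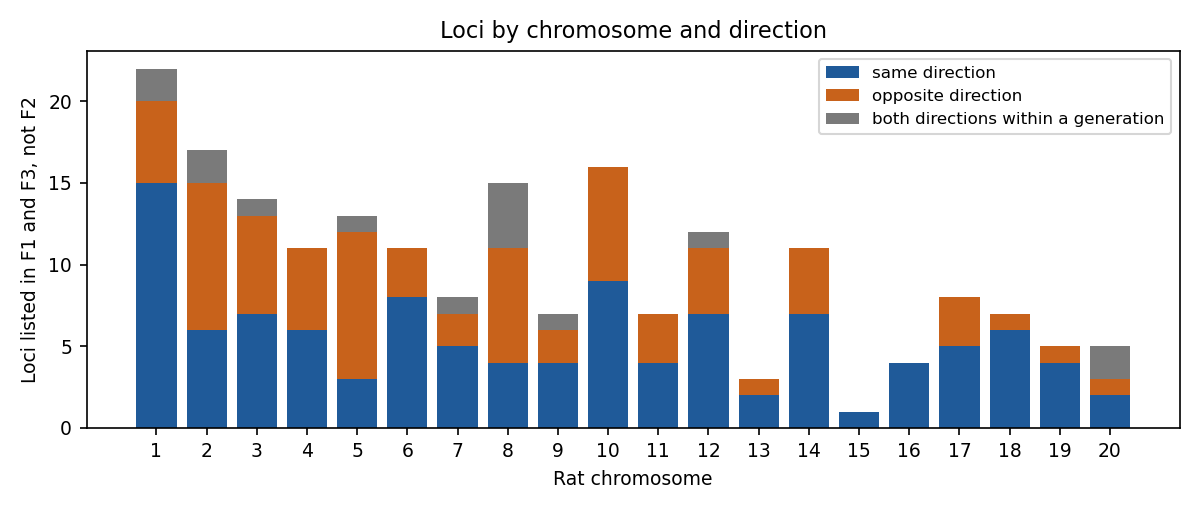
Number of loci listed in F1 and F3 but not F2 on each rat chromosome (vertical axis, loci; fewer than 5 cytosines each), split into same direction, opposite direction and both directions within a generation. Chromosome 1 has 15 loci of the same direction and 5 of opposite direction, and chromosome 5 has 3 and 9.

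Neighbouring loci within 1 Mb of each other were mostly alike in keeping or reversing their direction, though most loci had no such neighbour. Of the 197 loci, 67 fell into 27 blocks in which each was at most 1 Mb from the next, and 130 stood alone. Among 34 pairs of neighbours within 1 Mb of each other and with 1 direction per generation, 30 were alike in keeping or reversing their direction, 16 keeping and 14 reversing. Fewer pairs, 20 of the 34, also had the same hyper or hypo direction in both loci, 11 of them among the 14 reversing pairs. Several of the 34 pairs came from the same blocks. Over all 182 loci, 109 kept and 73 reversed their direction, and whether more pairs were alike than these totals would give was not tested. The 182 loci are thus not independent, and the intervals over loci may be too narrow by an amount that was not estimated.

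The block with most loci, chr8:126579634-128212805, held 5 loci over 1633172 bp, 4 of them hyper in F1 and hypo in F3 and 1 mixed. In F1 the authors' deposited table lists the 4 loci at 27.3, at 52.0 and 39.6, at 20.7, and at 24.4, 31.2 and 31.9 points. The F3 entries of the same loci in the authors' deposited table stood at −21.9, at −20.4, at −34.9, and at −37.3 and −32.7 points. Over the whole block, other loci included, 10 of 13 listed cytosines were hyper in F1 and 1 of 14 was hyper in F3, and none was listed in F2. The counted loci contributed all but 2 of the hyper cytosines in F1, and of the 6 other loci 3 were listed in F1 and 3 in F3.

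The opposite reversal occupied chr5:152161742-153613678, where 4 loci were hypo in F1 and hyper in F3. In the authors' deposited table their F1 values were −21.6, −24.6, −26.0 and −21.5 points, and their F3 values 24.7, 21.01, 34.1 and 44.9 points. All 7 cytosines listed in F3 in this block were hyper, while in F1 3 of 7 were hyper, all 3 in loci not counted here. These 3 lay at positions 152164889, 153281261 and 153503492, with 28.9, 23.3 and 31.6 points in F1 in the authors' deposited table. The middle one was hyper in F2 and F3 too, at 29.3 and 29.7 points in the authors' deposited table. The 3 reversing loci on chromosome 4 named above lay within 485863 bp at chr4:17420801-17906663. Between them the authors' deposited table has 1 cytosine listed in F2, at position 17879255 with −48.8 points, 1 in F1 that was hyper, at position 17882201 with 22.4 points, and 3 in F3 of which 1 is hyper and 2 hypo. Neither generation was thus uniform there.

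Blocks that kept their direction also occurred. In chr10:101060660-101209077, 3 loci within 148418 bp were hypo in both generations. The authors' deposited table lists them in F1 at −25.9, −27.4 and −26.5 points, and in F3 at −33.4, at −30.1 and −41.0, and at −24.4 and −23.1. The 9 listings in this span, 3 in F1 and 6 in F3, were all hypo, and none was in F2. The surroundings were not uniform. Shortly before it lay chr10:101048175-101048334, a locus of F1 and F3 set aside by the limit on cytosines, with 8 of them. In the authors' deposited table it was hyper in F1, with a mean of 39.8 points, and held both directions in F3, with a mean of 33.1. In chr6:144147815-145524595, 4 loci kept their direction, 3 hypo and 1 hyper, the hyper one being the locus at position 144398727 given above. The 3 hypo loci had −30.9 and −26.5, −27.7, and −29.6 and −24.7 points in F1 in the authors' deposited table. Their F3 values in the authors' deposited table were −25.2 and −21.6, −27.3, and −24.7 and −30.0 points. This block also held 9 other loci, among them a long run of cytosines listed in F1 and F2.

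**Figure D5:**
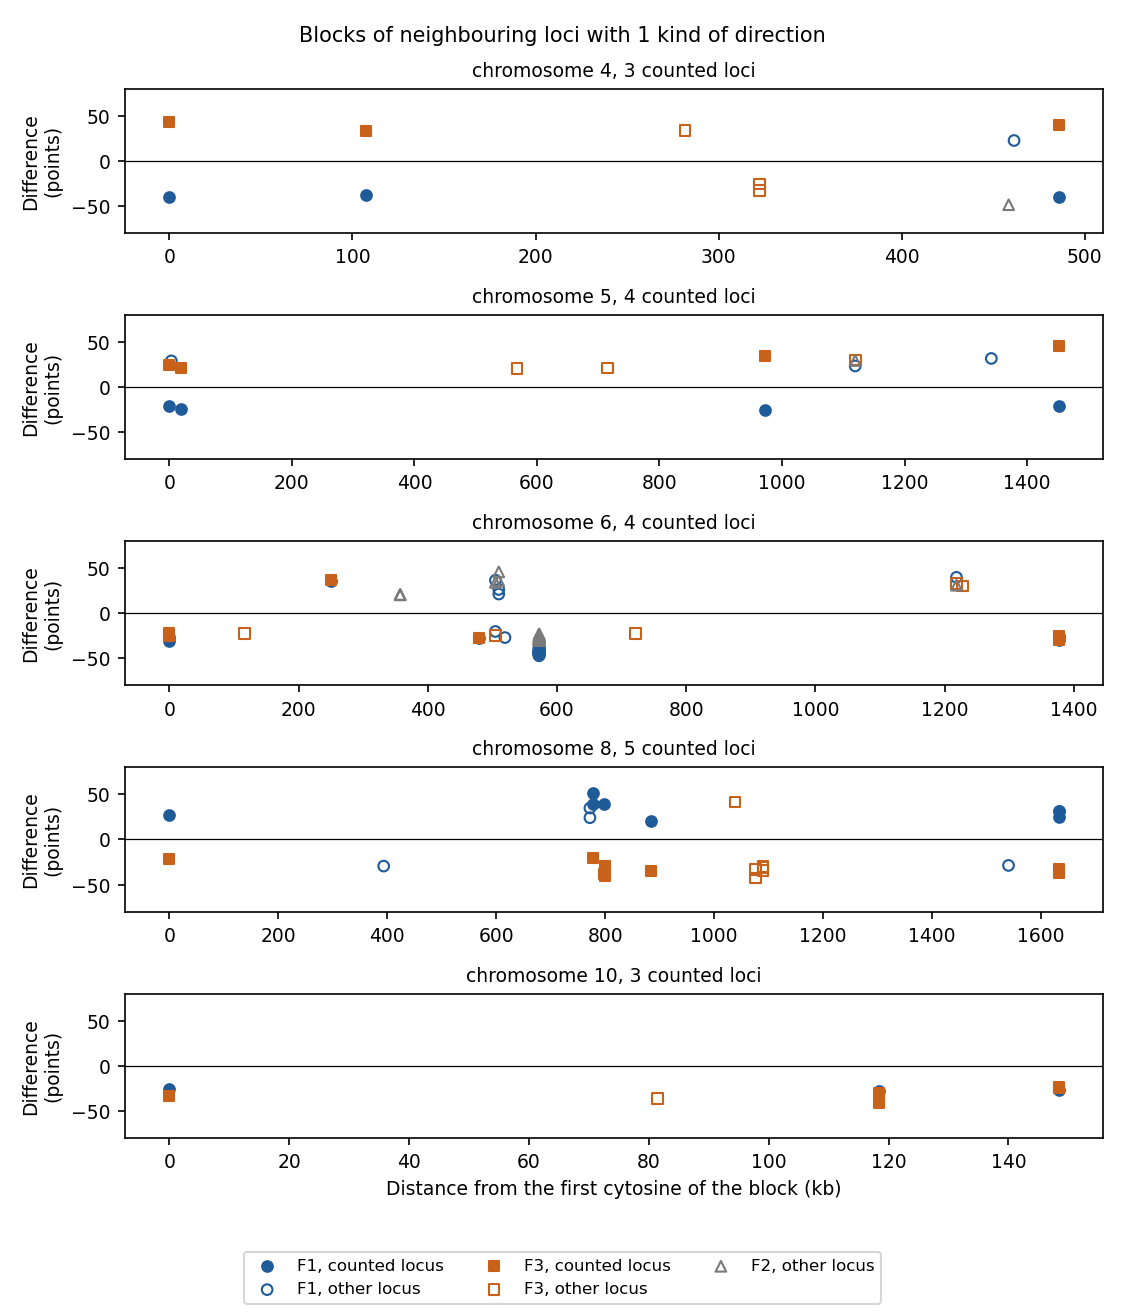
Differences in percentage points (vertical) against distance in kb from the first cytosine (horizontal) in the 5 blocks of 3 or more neighbouring loci that all kept, or all reversed or mixed, their direction; filled symbols are loci listed in F1 and F3 but not F2, open symbols other listed loci, circles F1, squares F3 and triangles F2. On chromosomes 4, 5 and 8 the filled F1 and F3 symbols lie on opposite sides of 0, except 1 F1 cytosine of the mixed locus at −34.9 points, and on chromosomes 6 and 10 on the same side.

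The remaining blocks of 3 or more were mixed in kind. At chr4:7386211-8176722 the first locus was hypo in both generations, and the other 2 reversed, in opposite ways. At chr8:19727519-21246488, 2 loci went from hypo to hyper, 1 was hyper in both, at 22.9 points in F1 and 47.7 in F3, as given in the authors' deposited table, and the fourth was the CpG whose strands had opposite signs; none of its span was listed in F2. At chr12:29226726-30057470, 2 loci were hyper in both generations and the third was the mixed locus with the largest hypo values.

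By the rule that formed these loci, no cytosine listed in F2 could lie within the joining distance of them. Their distances were not compared with those of other loci, so whether they lay unusually far from F2 cytosines was not tested. The nearest F2 cytosine was 1938 bp away at the closest, 845799 bp at the median, and beyond 1 Mb for 92 loci. It lay within 10 kb for 3 loci, 10 to 100 kb away for 19 and 100 kb to 1 Mb away for 83. The closest was at chromosome 11, position 77658347, hyper at 21.6 points in F1 and 44.1 in F3, with a cytosine hyper at 25.2 points in F2 at position 77660285 in the authors' deposited table. Near chromosome 10, position 45279152, hyper at 21.98 points in F1 and 22.2 in F3, the F2 neighbour at 45277066 was hypo at −31.9 points in the authors' deposited table. Direction was kept in 10 of 17 loci whose nearest F2 cytosine was 10 to 100 kb away (58.8%, 32.9 to 81.6%). It was kept in 50 of 77 at 100 kb to 1 Mb (64.9%, 53.2 to 75.5%) and in 47 of 85 beyond 1 Mb (55.3%, 44.1 to 66.1%). The intervals overlap, and a relation with distance was not tested.

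The limit of fewer than 5 cytosines set 8 further loci of F1 and F3 aside. Just inside the limit stood 6 loci of 4 cytosines: 2 kept hyper, 2 reversed and 2 were mixed. Those that kept hyper were the chromosome 14 locus above and chr13:56997283-56997334, with 20.5 points in F1 and up to 30.6 in F3, as given in the authors' deposited table. Those that reversed were the chromosome 1 locus above and chr1:225342855-225342968, with 21.97 points in F1 and down to −21.5 in F3, as given in the authors' deposited table. Just outside, chr8:21601391-21601578 had 5 cytosines hyper in both lists, whose values in the authors' deposited table averaged 29.4 points in F1 and 43.4 in F3, and chr2:73074013-73074119 had 6, with means of 26.2 and 33.4. Of the 8 loci outside, 6 had 1 direction per generation and kept it, and 2 were mixed.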

How the data were processed

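RRBS of rat epididymal sperm was processed by the authors. Per the submitters' processing notes, the tools were methylKit 0.9.4, Bismark 0.14.5, bedtools 2.17, SAMtools 1.2, Trim Galore 0.4.0 and CASAVA, with roles not stated, and the build was Rnor_5.0. The 6 deposited lists (hyper and hypo for F1, F2 and F3) give, per cytosine, position, strand, signed difference in percentage points, and the authors' p-value and q-value. The lists hold only sites past the authors' limits, so depth and the sites tested are unknown.

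The lists were pooled, and cytosines were joined at 1000 bp or less per chromosome, over both strands. A locus was called hyper or hypo in a generation where all its listings there had that sign, and mixed otherwise. Counts and exact Clopper-Pearson 95% intervals were computed with Python 3.11.15, pandas 2.3.3 and SciPy 1.17.1, and the joining was checked on simulated lists. Named loci were the 6 strongest per direction (smaller of the largest absolute F1 and F3 differences), the 4 with most shared cytosines and the strongest mixed loci. Further loci (blocks of neighbours, other mixed loci, those nearest to F2 cytosines or near the size limit) were named after their values were seen. Members and rules were chosen with earlier results of these data known. No genome or annotation of Rnor_5.0 was used, so genes and sequences are not reported.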

Additional observations from a re-analysis of the deposited data

How the results depend on the processing

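The number of loci, the count of each direction and the median sizes were recomputed with other joining distances, with both strands of a CpG counted as 1, with other limits on the number of cytosines, with F2 cytosines kept farther away, and with stricter limits on difference and q-value. The share of loci that kept their direction stayed between 59.2% and 66.3% over these settings. With a minimum difference of 25 points there were 100 loci, 59 of the same and 30 of opposite direction, 98 shared cytosines and medians of 31.2 points in F1 and 33.7 in F3. With 30 points these were 56, 31, 18, 54, 35.5 and 37.3. With q-values of 1e-05 or less the F3 median was 31.0 points, over 158 loci. Stricter limits leave fewer and larger differences by construction. Counting each block of loci at most 1 Mb apart once, where its loci were of 1 kind, was an alternative chosen after seeing the data and gave 86 of the same and 53 of opposite direction (61.9%). Without read depth or sample values, the error of a single difference, and whether a site missing from F2 was covered there, could not be examined.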
